A study of Drosophila melanogaster with 16 samples.

Results

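The lysozyme gene cluster of Drosophila melanogaster was followed in the larval midgut through its 7 members LysB, LysC, LysD, LysE, LysP, LysS and LysX, which were chosen by symbol from the 17873 genes of the expression tables. All 7 were found. The mRNA of dissected midguts had been sequenced in 16 libraries, 4 biological replicates in each of 4 groups, and the counts of a library summed to 44546248 to 83418453. Larvae of 2 genotypes were compared at 2 ages, so that each lysozyme transcript could be compared between ages and between genotypes.

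Control larvae were mex-GAL4 / attP40 and carried the driver without an RNAi transgene. Hnf4i larvae were mex-GAL4 / UAS-Hnf4 RNAi, in which the same driver, active in the absorptive enterocytes of the gut, expressed RNAi against Hnf4, a nuclear receptor that controls metabolic genes. Both genotypes had mex-GAL4 mothers and were raised on yeast alone, but their fathers came from different stocks. Day 3 after egg laying was the late L2 instar, with 30 midguts pooled per library, and day 4 was the early L3 instar, with 10 midguts pooled per library. A midgut library also holds muscle, endocrine and progenitor cells, and fewer cells of a type and less RNA per cell cannot be told apart in it. Age, instar and the number of midguts pooled likewise cannot be told apart. The Hnf4 transcript was lower in the Hnf4i libraries. On day 3 it stood at 45.7 to 50.6 CPM against 88.0 to 94.0 in the controls. On day 4 it stood at 58.8 to 68.3 CPM against 124 to 134. CPM are counts scaled to a library total of 1e6, here after the TMM scaling explained below.

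Lysozymes are secreted enzymes that cut the peptidoglycan of bacterial cell walls. Most animals use them in defence, but Drosophila, which feeds on fermenting material, makes large amounts in its gut, where they digest the bacteria eaten with the food. The genes of this cluster encode chicken-type (C-type) lysozymes and are known for expression in different places along the digestive tract: LysB, LysC, LysD and LysE, which are closely related copies, in the midgut, LysS mainly in the larval gastric caeca, LysX in the midgut of late larvae and pupae, and LysP in the adult salivary gland.

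On the BDGP6 assembly the cluster spans 33500 bp of chromosome 3L, and each member is annotated with 1 exon. From left to right it holds LysX at chr3L:1194739-1195302 on the minus strand, LysB at chr3L:1207371-1207981 on the plus strand, LysC at chr3L:1210485-1210726 on the plus strand and LysD at chr3L:1210717-1211196 on the minus strand. LysE follows at chr3L:1212827-1213406 on the plus strand, then LysP at chr3L:1218082-1218696 on the minus strand and LysS at chr3L:1227747-1228238 on the plus strand. All but LysX lie within mwh, a plus-strand gene of planar cell polarity, and no member overlaps an mwh exon. LysC is annotated as a pseudogene of 242 bp without a coding region, and its end overlaps the end of LysD by 10 bp on the opposite strand. The other 6 encode proteins, with a coding length of 420 bp in LysB, LysD, LysE and LysS, 423 bp in LysP and 426 bp in LysX. The library kit kept strand, but whether the counting used strand is not given for these tables. How reads that match several of the related copies were counted is not given either. The division of counts among LysB, LysC, LysD and LysE is therefore uncertain, and their fold changes between groups are also given for their sum.

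**Figure D1:**
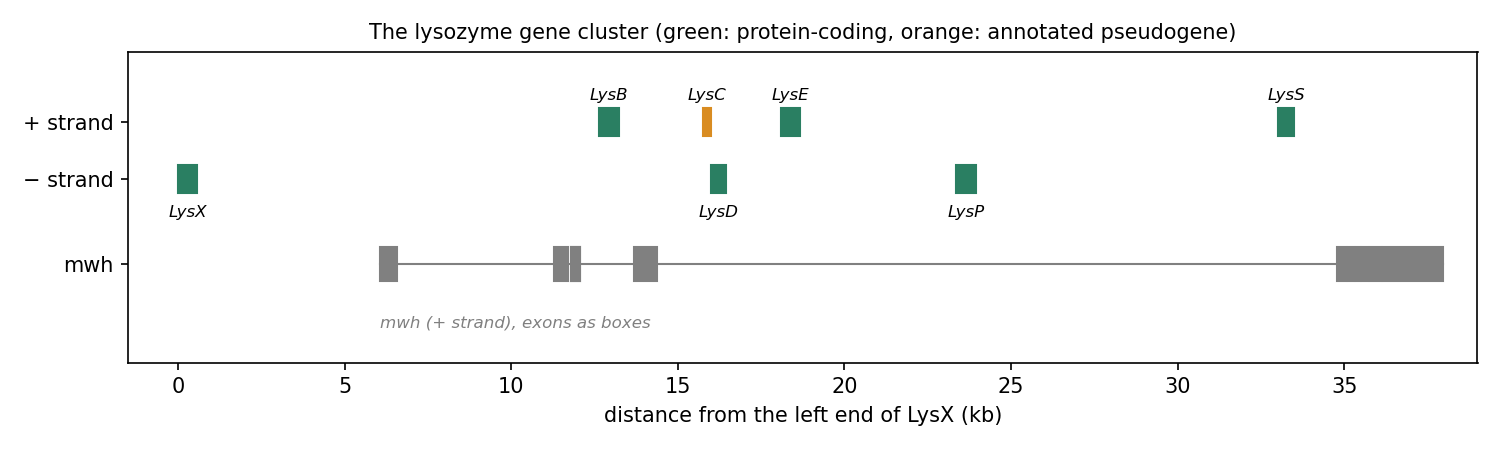
Map of the lysozyme cluster to scale, with distance from the left end of LysX in kb on the horizontal axis and one row each for plus-strand genes, minus-strand genes and the exons of mwh. LysB, LysC, LysD and LysE sit together near the middle of the 33500 bp, LysC and LysD touch, and no lysozyme gene lies on an exon of mwh.

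Lysozyme transcripts were among the most abundant of the midgut. Together the 7 genes took 0.437% to 2.22% of all counts in a library. Levels between genes were compared per kilobase of annotated exon, as CPM after TMM scaling (trimmed mean of M-values, which corrects for differences in RNA composition). On that scale LysD had the highest mean of the cluster in all 4 groups, and its rank among all genes was 14 in control and 12 in Hnf4i midguts on day 3 and 5 in both on day 4. In control midguts of day 4, LysD stood at 13867 ± 161 CPM per kb (SD, n = 4), LysB at 10075 ± 699, LysC at 9928 ± 479, LysS at 7390 ± 1595, LysE at 382 ± 40.2 and LysX at 58.7 ± 32.9. LysB and LysC overlapped in their library values there, and the other neighbours in this order did not. In Hnf4i midguts of day 4 the order was LysD, LysC, LysS, LysB, LysE and LysX, and each neighbouring pair from LysD down to LysB overlapped, while LysE and LysX stood apart. On day 3, LysC, LysB and LysS formed an overlapping series below LysD in control midguts, and LysC, LysS and LysB did so in Hnf4i midguts. LysE followed at 128 ± 28.0 and 303 ± 42.1 CPM per kb, while LysX and LysP were near 0 on day 3.

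Every lysozyme gene that could be tested rose between day 3 and day 4, in both genotypes. LysB, LysC, LysD, LysE and LysS rose by 1.58 to 2.39 on the log2 scale, and LysX rose from a handful of counts. All values that follow for single genes are TMM-scaled CPM per library, in the order of replicates 1 to 4, and a gene was called changed at an adjusted p below 0.05 and a log2 fold change of at least 0.5 in either direction.

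LysD, the most abundant midgut lysozyme here, stood at 1756, 1931, 2327 and 2422 CPM in control midguts on day 3 and at 6748, 6561, 6642 and 6674 on day 4. In Hnf4i midguts it stood at 1445, 1567, 2073 and 1716 on day 3 and at 6037, 5733, 7795 and 8713 on day 4. The ages did not overlap in either genotype, and the 4 control libraries of day 4 lay within 1.03-fold of each other. LysD rose by a log2 fold change of 1.66 ± 0.14 (SE) in control and 2.06 ± 0.14 in Hnf4i midguts (edgeR quasi-likelihood test, adjusted p = 1.41e-08 and 1.08e-09).

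LysB, a closely related copy, stood at 1073, 1229, 1762 and 1798 CPM in control midguts on day 3 and at 6581, 6464, 5767 and 5810.3 on day 4. In Hnf4i midguts the values were 521, 642, 1027 and 775 on day 3 and 3520.4, 3363, 4193 and 4480.2 on day 4. Again no library of day 4 was as low as any of day 3. The rise was 2.07 ± 0.19 on the log2 scale in control and 2.39 ± 0.19 in Hnf4i midguts (edgeR adjusted p = 5.64e-08 and 9.95e-09).

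LysC, the annotated pseudogene beside LysD, moved with LysD. It stood at 589.7, 645, 739 and 803 CPM in control midguts on day 3 and at 2498, 2506, 2285 and 2321 on day 4. In Hnf4i midguts it stood at 481, 532, 707 and 616 on day 3 and at 2622, 2231, 3187 and 3387 on day 4. The ages did not overlap, and the rise was 1.79 ± 0.14 in control and 2.29 ± 0.14 in Hnf4i midguts (log2, edgeR adjusted p = 4.57e-09 and 2.85e-10). Over the 16 libraries, which share these age groups, the log2 levels of LysC and LysD had a Pearson r of 0.997, the highest of any pair of the tested members, and LysB and LysE had the lowest, 0.526.

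LysE is a midgut copy of much lower level. It stood at 55.2, 68.8, 93.3 and 79.9 CPM in control midguts on day 3 and at 205, 248, 233 and 199 on day 4. In Hnf4i midguts it stood at 158, 158, 209 and 178 on day 3 and at 606, 558, 772 and 879 on day 4. The ages were apart in both genotypes, and LysE rose by 1.58 ± 0.16 and 2.00 ± 0.16 on the log2 scale (edgeR adjusted p = 1.8e-07 in control and 9.39e-09 in Hnf4i midguts).

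LysS, the lysozyme known from the gastric caeca, stood at 937, 926, 727 and 809.9 CPM in control midguts on day 3 and at 2832, 3109, 4167 and 4436 on day 4. In Hnf4i midguts it stood at 1562, 1009.7, 826 and 1006 on day 3 and at 2891, 2660.2, 5514 and 6923 on day 4. The ages did not overlap, but the day 4 libraries of Hnf4i spread over 2.60-fold, more than those of LysB, LysC, LysD and LysE in that group. LysS rose by 2.10 ± 0.27 in control and 2.03 ± 0.27 in Hnf4i midguts (log2, edgeR adjusted p = 3.65e-06 and 4.63e-06).

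LysX, which is known from late larval and pupal midguts, was close to the limit of detection on day 3. It had 7, 3, 4 and 8 counts in control and 2, 0, 8 and 14 counts in Hnf4i libraries of day 3. On day 4 it had 798, 1351, 2213 and 2534 counts in control libraries, or 17.7, 18.8, 39.4 and 56.5 CPM, and 6435, 1189, 4954 and 2928 counts in Hnf4i libraries, or 117, 25.7, 107 and 55.9 CPM. Each library of day 4 was therefore far above each of day 3, with a spread within day 4 of 3.20-fold in control and 4.53-fold in Hnf4i midguts. The log2 fold change was 8.46 (95% interval 6.91 to 10.00) in control and 9.52 (7.996 to 11.04) in Hnf4i midguts (edgeR adjusted p = 2.29e-08 and 4.03e-09). LysX passed the filter on low counts only through day 4, so that some difference between ages followed from its being tested at all.

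**Figure D2:**
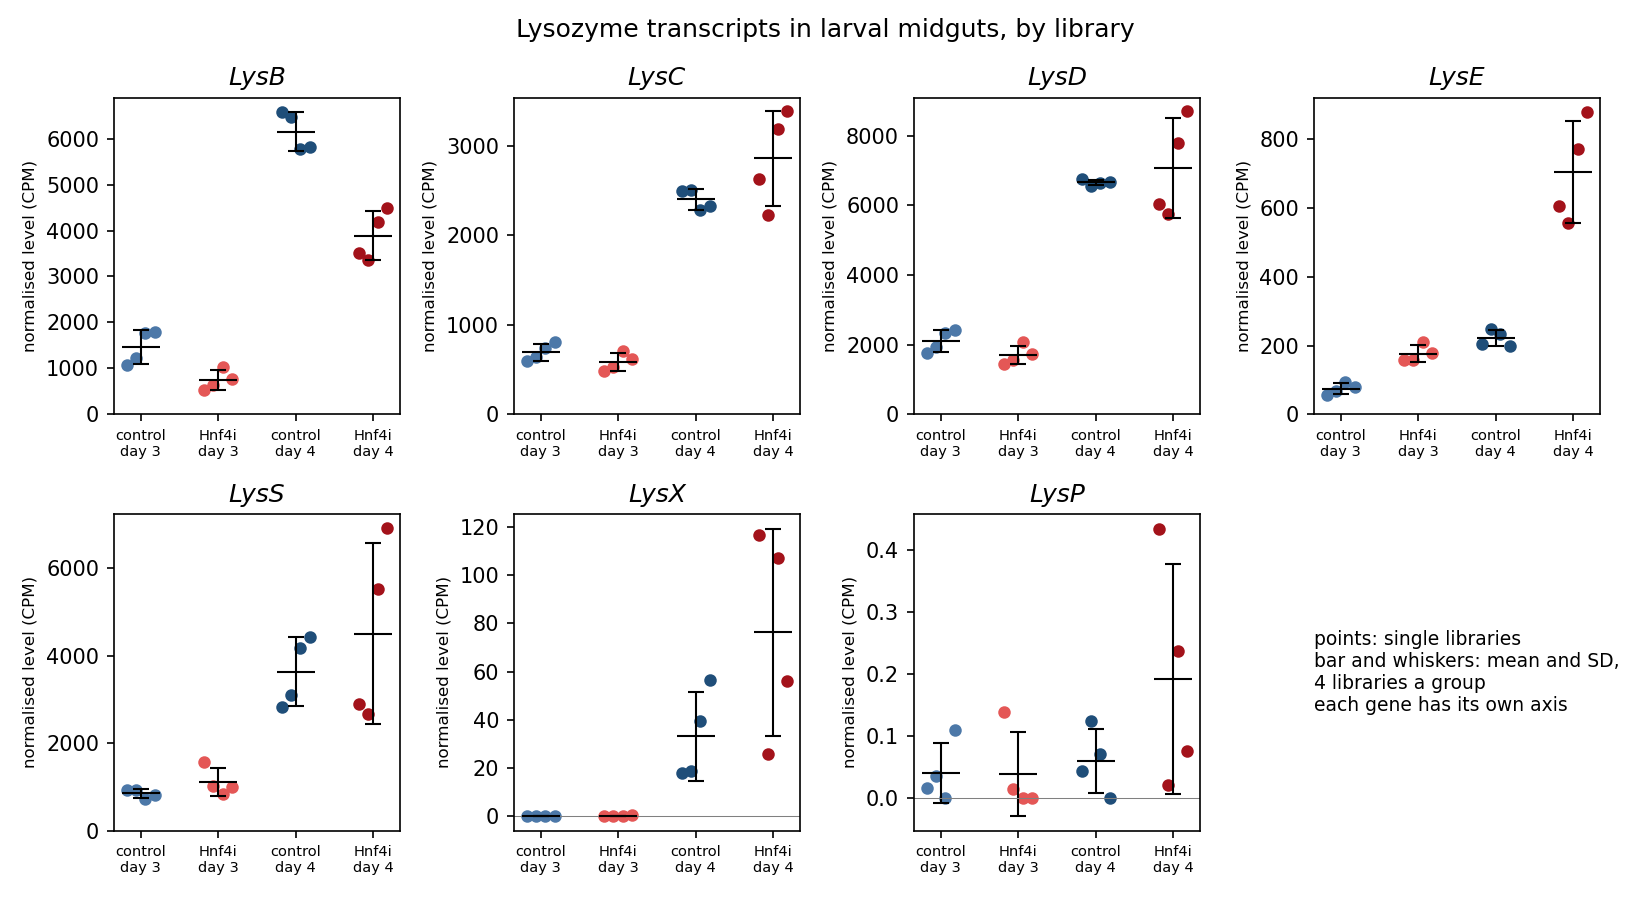
Normalised level in CPM of each lysozyme gene (vertical axes, linear, one scale per gene) in the 4 groups (horizontal axes). Points are single libraries and bars give the mean and SD of 4. LysB was lower and LysE higher in Hnf4i than in control midguts at both ages, without overlap, and LysX was near 0 in every library of day 3.

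LysB, LysC, LysD, LysE and LysS, the 5 genes with ample counts at both ages, were all called higher on day 4 in both genotypes, where 17% of the 9801 genes tested were called higher in control and 18.8% in Hnf4i midguts, and 39.2% and 42.7% in either direction. All 5 also had ages that did not overlap, as did 59% of genes in control and 58.4% in Hnf4i midguts. LysX, tested only through its day 4 counts, is left out of these comparisons with all genes. The median log2 fold change of the 5 was 1.79 in control and 2.06 in Hnf4i midguts, beside 0.01 and -0.01 over all genes tested. Summed, LysB to LysE rose by 1.83 ± 0.15 and 2.18 ± 0.15 and all 7 by 1.88 ± 0.14 and 2.15 ± 0.14 on the log2 scale. With library totals alone in place of TMM the median gene fell by 0.29 in control and by 0.28 in Hnf4i midguts, and the 5 genes and LysX stayed called.

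The rise from day 3 to day 4 was not shown to differ between genotypes for any member. The difference in log2 rise, Hnf4i minus control, was 0.32 for LysB, 0.50 for LysC, 0.40 for LysD, 0.43 for LysE, -0.07 for LysS and 1.06 for LysX. None of the 6 was called (edgeR adjusted p = 0.122 to 0.955, with 1 of 6 at an unadjusted p below 0.05, and 0 of 6 called by DESeq2), against 5.03% of all genes. The intervals were wide: for LysC the 95% interval was 0.10 to 0.89, for LysD -0.003 to 0.80, for LysE -0.04 to 0.89 and for LysS -0.86 to 0.72. For the sum of LysB to LysE the difference was 0.35 ± 0.20 (95% interval -0.08 to 0.78) and was not called (edgeR adjusted p = 0.353). Without replicate 2 of Hnf4i on day 4, LysC was called with a difference of 0.60 (edgeR adjusted p = 0.0353). Over the alternatives (edgeR or DESeq2) its adjusted p ran from 0.0353 to 0.353, where the highest is that of LysB to LysE summed.

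Between genotypes the cluster did not move as a whole. LysE was higher and LysB lower in Hnf4i midguts at both ages, LysX was called higher on day 4, and LysC, LysD and LysS were not called at either age. On day 3, 1 of the 6 genes was called higher and 1 lower, where 1.51% and 2.46% of all genes were, 3.97% in all. On day 4, 2 of 6 were called higher and 1 lower, where 5.46% and 6.71% of all genes were, 12.2% in all. LysB and LysE were also the members whose genotypes did not overlap at both ages, which held for 17.4% of all genes on day 3 and for 24.2% on day 4.

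LysE had a mean of 74.3 ± 16.2 CPM (SD, n = 4) in control and 176 ± 24.4 in Hnf4i midguts on day 3, and of 221 ± 23.3 and 704 ± 149 on day 4. The lowest Hnf4i library stood above the highest control library at each age, at 158 against 93.3 and at 558 against 248. LysE was 2.36-fold higher on day 3 (log2 1.24 ± 0.16, edgeR adjusted p = 4.12e-05) and 3.18-fold higher on day 4 (log2 1.67 ± 0.16, adjusted p = 5.9e-07).

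LysB had a mean of 1466 ± 369 CPM in control and 741 ± 217 in Hnf4i midguts on day 3, and of 6156 ± 427 and 3889 ± 534 on day 4. The highest Hnf4i library lay just under the lowest control library on day 3, at 1027 against 1073, and further below it on day 4, at 4480.2 against 5767. Relative to control, LysB was at 0.506-fold on day 3 (log2 -0.98 ± 0.19, edgeR adjusted p = 0.00197) and at 0.632-fold on day 4 (log2 -0.66 ± 0.19, adjusted p = 0.0133).

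LysC and LysD differed less, and their genotypes overlapped at both ages. LysC was at -0.25 on the log2 scale on day 3 (95% interval -0.53 to 0.03) and at 0.25 on day 4 (-0.03 to 0.53), with edgeR adjusted p of 0.333 and 0.181. LysD was at -0.31 on day 3 (-0.59 to -0.03) and at 0.09 on day 4 (-0.20 to 0.37), with adjusted p of 0.203 and 0.685. The day 4 libraries of Hnf4i spread on both sides of the control libraries for LysD, with replicates 1 and 2 below all of them and replicates 3 and 4 above. LysS was at 0.37 on day 3 (-0.19 to 0.93) and at 0.31 on day 4 (-0.25 to 0.86), with adjusted p of 0.514 and 0.434, and its genotypes overlapped as well.

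LysX was called higher in Hnf4i midguts on day 4, at 76.3 ± 43.0 against 33.1 ± 18.6 CPM, a log2 fold change of 1.21 ± 0.41 (edgeR adjusted p = 0.036). The genotypes overlapped, since replicates 2 and 4 of Hnf4i, at 25.7 and 55.9 CPM, lay within the control range. The call was lost with DESeq2 (adjusted p = 0.182), in the fit of the day 4 libraries alone (0.101), and on leaving out replicate 1 or 2 of control or replicate 1 or 3 of Hnf4i on day 4 (log2 0.93 to 1.01, adjusted p = 0.105 to 0.116), and over all 25 alternatives its adjusted p ran from 0.00407 to 0.182. On day 3 its counts were too few to compare genotypes, with a 95% interval of -3.23 to 3.53.

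**Figure D3:**
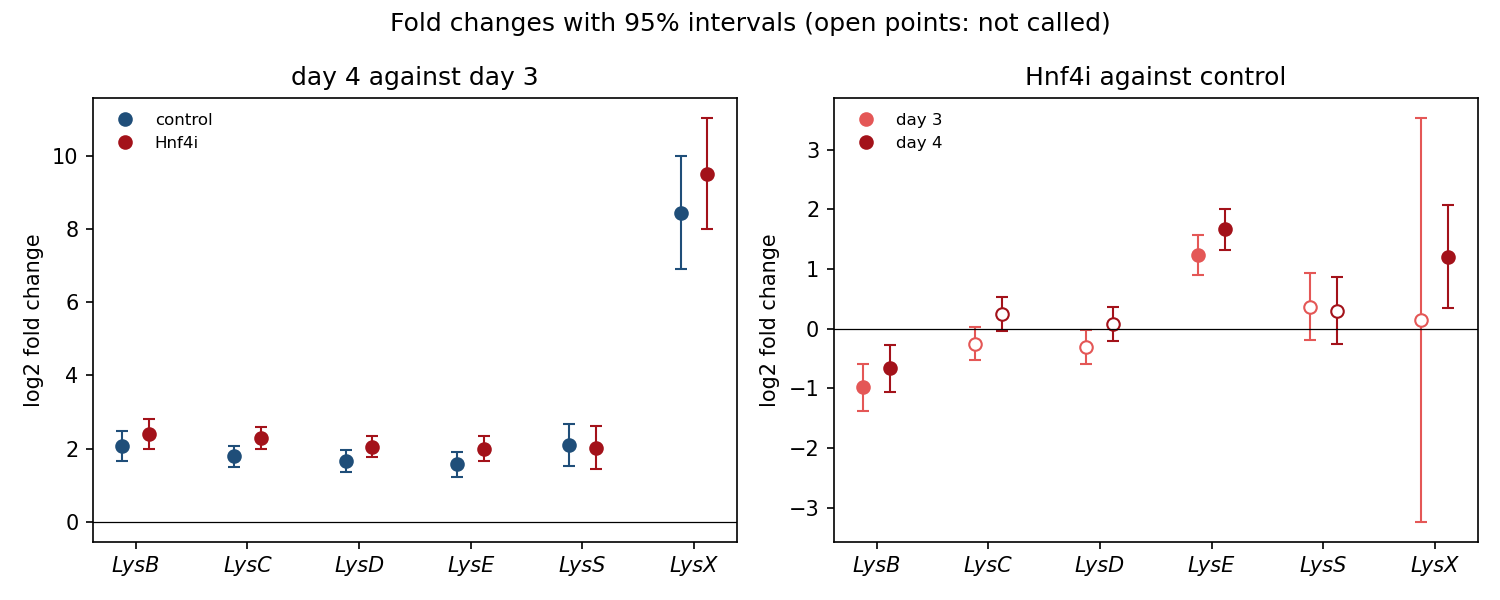
Log2 fold change with 95% interval (vertical axes) of the 6 tested lysozyme genes (horizontal axes), day 4 against day 3 in each genotype on the left and Hnf4i against control at each age on the right. Filled points were called and open points were not. All 6 genes rose with age, while between genotypes LysE lay above 0 and LysB below 0 at both ages.

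The opposite differences of LysB and LysE can also be read within each library, relative to LysD, which leaves out library scaling. These are ratios of counts and not of levels per length. Per 100 counts of LysD, the control libraries held 3.14, 3.56, 4.01 and 3.30 counts of LysE on day 3 and 3.04, 3.79, 3.51 and 2.99 on day 4. The Hnf4i libraries held 10.9, 10.1, 10.1 and 10.4 on day 3 and 10.0, 9.73, 9.90 and 10.1 on day 4. The ratio was thus near 3 to 4 in every control library and near 10 in every Hnf4i library, at both ages.

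LysB stood at 61.1, 63.7, 75.8 and 74.2 counts per 100 of LysD in control libraries on day 3 and at 97.5, 98.5, 86.8 and 87.1 on day 4. In Hnf4i libraries it stood at 36.0, 41.0, 49.6 and 45.1 on day 3 and at 58.3, 58.7, 53.8 and 51.4 on day 4. Unlike that of LysE, this ratio was higher on day 4 than on day 3 in both genotypes, and at each age it was lower in Hnf4i. LysC varied less, at 31.8 to 33.6 per 100 of LysD in control and 33.3 to 35.9 in Hnf4i libraries on day 3. On day 4 the Hnf4i libraries, at 38.9 to 43.4, lay just above the controls, at 34.4 to 38.2.

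**Figure D4:**
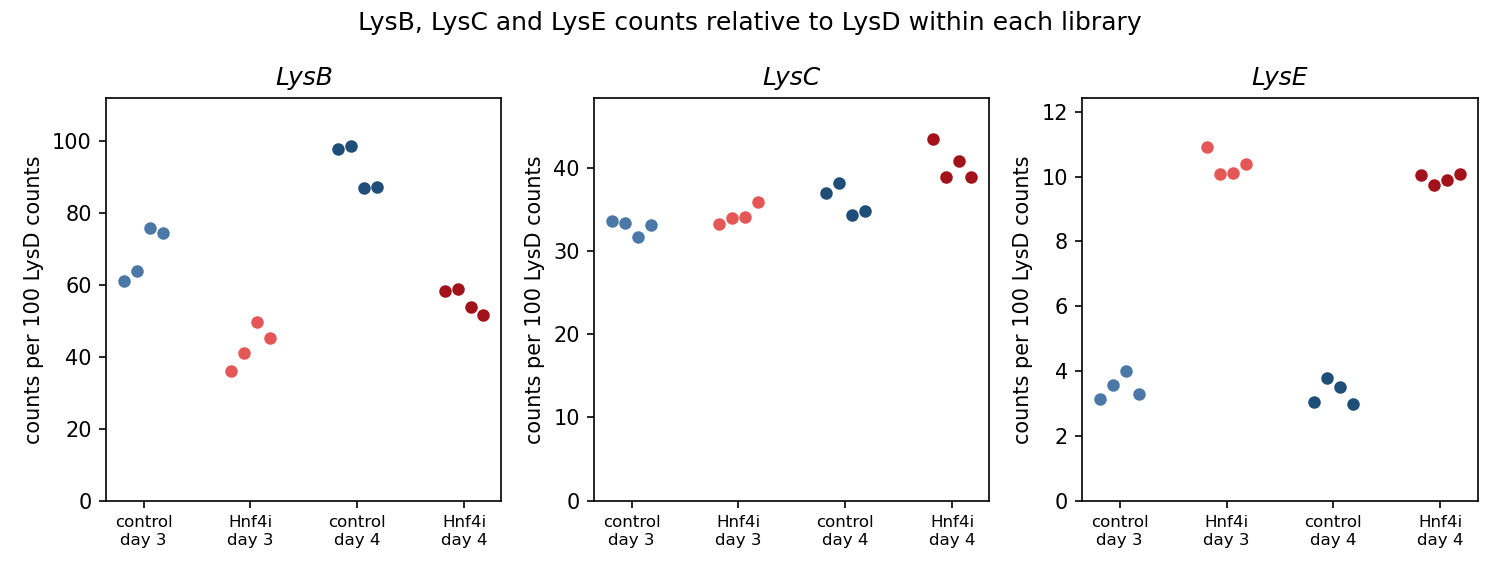
Counts of LysB, LysC and LysE per 100 counts of LysD (vertical axes) in each library of the 4 groups (horizontal axes), with 1 point per library. LysE lay between 2.99 and 4.01 in control and between 9.73 and 10.9 in Hnf4i libraries, whichever the age, and LysB was lower in Hnf4i libraries at both ages.

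Of all lysozyme counts, LysE made up 1.42% ± 0.17 (SD, n = 4) in control and 4.07% ± 0.23 in Hnf4i midguts on day 3, and 1.16% ± 0.13 and 3.71% ± 0.14 on day 4. LysB made up 27.9% ± 3.43 and 17.0% ± 3.63 on day 3, and 32.2% ± 2.65 and 20.8% ± 2.26 on day 4. The groups did not overlap in any of these pairs, and each had the smallest p that an exact two-sided permutation test of 4 against 4 can give, 0.0286. Adjusted over the 28 comparisons of shares (7 genes in 4 comparisons) that became 0.1 for the 8 comparisons at the smallest p, and none of the 28 passed. Since no p can lie below 0.0286, a comparison could pass this adjustment only if many more reached that value. That none passed therefore does not show equal shares. The share of LysC on day 4 also reached the smallest p, at 12.6% ± 0.76 in control and 15.1% ± 1.15 in Hnf4i midguts.

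Once the related copies were summed, no genotype difference was called. LysB to LysE together stood at 4343 ± 793 CPM in control and 3201 ± 611 in Hnf4i midguts on day 3. By day 4 their levels were 15436 ± 554 and 14519 ± 2622 CPM. The log2 difference was -0.44 ± 0.14 on day 3 (95% interval -0.75 to -0.13, edgeR adjusted p = 0.0765). On day 4 it was -0.09 (95% interval -0.39 to 0.22, adjusted p = 0.704). All 7 genes together stood at 5193 ± 705 and 4302 ± 394 CPM on day 3, a log2 difference of -0.27 (-0.55 to 0.01). On day 4 they stood at 19104 ± 285 and 19093 ± 4691 CPM, a log2 difference of -0.0007 (-0.28 to 0.28). LysE held 74.3 of the 4343 CPM of LysB to LysE in control midguts on day 3, and 221 of 15436 on day 4. The sum could therefore hardly show a difference of LysE, and it mixes LysB with the larger LysD. The loss of the calls in the sum cannot tell how reads were assigned to single copies. The mothers were of 1 stock and the fathers of different stocks, so that silencing of Hnf4 and the paternal copy of chromosome 3L cannot be told apart.

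**Figure D5:**
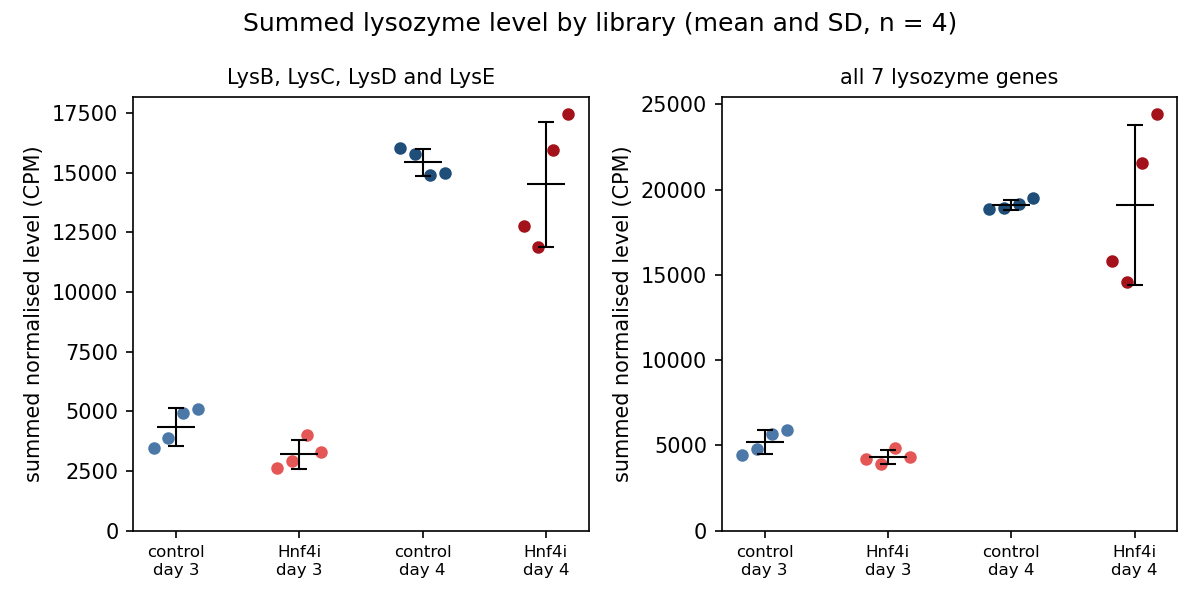
Summed normalised level in CPM (vertical axes) of LysB to LysE and of all 7 lysozyme genes in the 4 groups (horizontal axes). Points are single libraries and bars give the mean and SD of 4. Both sums were higher in every library of day 4 than in any of day 3, and on day 4 the Hnf4i libraries spread on both sides of the controls.

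LysP, the salivary gland lysozyme, had 1, 2, 0 and 7 counts in control and 7, 1, 0 and 0 in Hnf4i libraries on day 3, and 2, 9, 4 and 0 in control and 24, 1, 11 and 4 in Hnf4i libraries on day 4. It was the member that did not pass the filter on low counts. A count of 0 allowed up to 0.0513 to 0.0636 CPM in the 4 libraries that had none, for counting error only. These limits are on library totals, without TMM scaling. Fitted without the filter, none of its differences passed the test (edgeR adjusted p = 0.154 to 1), and no difference in LysP was detectable at this depth. Markers of the salivary gland were at or near 0 as well: the 10 genes, among them the glue genes Sgs1 and Sgs3, summed to at most 1.21 CPM in any library, with 4 to 7 of them at 0 throughout a group.

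The genes around the cluster were looked at by position, a choice made after the lysozyme values were known. Within 10 kb of it lie 11 other genes in the tables, and 10 of them were tested. On day 3, 3 of these 10 were called higher in Hnf4i midguts and none lower, against 1.51% and 2.46% of all genes: CG13912 by 0.95 ± 0.13, CG33965 by 0.84 ± 0.12 and CG9119 by 0.70 ± 0.08 on the log2 scale. On day 4, 2 were called higher, CG13912 by 0.94 ± 0.13 and mwh by 1.28 ± 0.28, and 2 lower, CG33966 at -0.53 ± 0.08 and galene at -0.56 ± 0.20. Over all genes 5.46% were called higher and 6.71% lower on that day. Between ages 1 rose and 2 fell in control midguts, where 17% of all genes were called higher and 22.2% lower. In Hnf4i midguts 1 rose and 3 fell, where 18.8% of all genes were called higher and 23.9% lower. The counts between ages were thus near the shares over all genes. The source of the genotype differences was not tested.

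Apart from CG16799, lysozyme genes outside the cluster were scarce in the midgut. Of 7 other C-type genes looked for, 6 were found and 3 tested, and of 4 invertebrate-type genes, 1 was tested. CG16799, a C-type gene, was the one above 1 CPM in any group mean, with day 3 means of 43.1 ± 2.87 CPM in control and 35.3 ± 5.33 in Hnf4i midguts and day 4 means of 84.3 ± 8.62 and 81.3 ± 5.98. It rose with age in both genotypes, by 0.97 ± 0.10 and 1.20 ± 0.10 on the log2 scale. None of the 3 C-type genes tested was called between genotypes at either age. CG6426, an invertebrate-type gene of at most 64 counts per library, was called lower in Hnf4i midguts on day 4, at -1.22 ± 0.32.

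Other carbohydrases of the gut, 12 genes that the study listed as digestive, showed another pattern. In control midguts 10 of 12 rose with age, against 17% of all genes, with a median log2 fold change of 1.24, led by Amy-d, which encodes an amylase (2.17 ± 0.09), and Mal-A4, which encodes a maltase (2.05 ± 0.08). In Hnf4i midguts 6 rose, against 18.8% of all genes, and 1 fell, with a median of 0.50. Between genotypes none was called on day 3, but on day 4 10 of the 12 were lower in Hnf4i midguts, against 6.71% of all genes, with a median of -0.75, while LysB was the lysozyme called lower. The difference in rise was called for 8 of the 12, all lower in Hnf4i, and for none of the 6 lysozymes, where it was called lower for 2.44% and higher for 2.59% of all genes. In summed level the 12 genes stood at 16170 to 18850 CPM in control and 9281 to 11309 in Hnf4i libraries of day 4, beside lysozyme sums of 18881 to 19497 and 14571 to 24437 CPM.

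Genes that sense or degrade peptidoglycan, the substrate of lysozymes, were tested as a further list. Of 12 peptidoglycan recognition proteins (PGRPs), 11 were tested, and 4 rose with age in control and 7 in Hnf4i midguts, none falling, where 17% and 18.8% of all genes rose. PGRP-SC2, an amidase that degrades peptidoglycan, rose by 3.17 ± 0.14 in control and 3.44 ± 0.14 in Hnf4i midguts. On day 3, PGRP-SC2 (-0.57 ± 0.13) and PGRP-SD (-2.55 ± 0.54), which helps recognise bacteria, were lower in Hnf4i midguts, 2 of 11 where 2.46% of all genes were. On day 4, PGRP-LF (2.01 ± 0.30), an inhibitor of the IMD immune pathway, and PGRP-SA (1.61 ± 0.37), a receptor of the Toll pathway, were higher. These were 2 of 11, where 5.46% of all genes were called higher. Apart from PGRP-SC2, the PGRPs called between genotypes were scarce. PGRP-SD had means of 1.45 CPM in control and 0.243 in Hnf4i midguts on day 3. On day 4 PGRP-LF had means of 0.690 and 2.82 CPM and PGRP-SA of 0.424 and 1.30. Of 14 antimicrobial peptide genes, 2 passed the filter, the attacin AttD and the diptericin DptA, and both were scarce on day 3. AttD had at most 12 counts in a day 3 library and up to 136 in control and 327 in Hnf4i libraries of day 4. It was called higher on day 4 in both genotypes. Like LysX, AttD passed the filter through its day 4 counts, so that some difference between ages followed from its being tested. DptA had 0 counts in all Hnf4i libraries of day 3 and at most 14 on day 4, so that it was tested only through the groups where it is higher and no fold is given. Summed, the 14 stayed at or below 7.52 CPM in every library, and none was called between genotypes.

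The genes whose log2 levels followed the lysozymes most closely over the 16 libraries were taken as the 5 of highest Pearson r for each profile. For the sum of LysB to LysE they were CG13887, CG12825, PGRP-SC2, CHKov1 and Arc1, with r of 0.984 to 0.989. For LysS they were Epg5, the protease gene Jon65Aiv, Pi3K68D, Pi4KIIalpha and Atg4a, with r of 0.982 to 0.990, and for LysX Alp13, Cyp4ac3, DnaJ-H, Atg18b and CG12868, with r of 0.984 to 0.990. Such values were common, since the libraries fall into age groups: of 9795 other genes, 800 exceeded 0.9 with the sum, 859 with LysS and 977 with LysX.

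Markers of some other cell types differed between the groups. Enterocyte markers were present throughout, with 5 genes summing to 1691 to 3550 CPM. Fat body markers, 7 genes of storage proteins and lipoprotein, summed to 11.7 to 41.6 CPM on day 3. There 1 of them was at 0 throughout control and 2 throughout Hnf4i. On day 4 the 7 genes summed to 23.3 to 141 CPM in control and to 12.8 to 2823 in Hnf4i libraries. All 6 tested were called higher in Hnf4i on day 4, against 5.46% of all genes. Of these, Lsp1alpha, Lsp1beta and Lsp2 had at most 12 counts in a day 3 library and passed the filter mainly through day 4 libraries. In the sum of the 7 genes, replicate 3 of control and replicates 1, 2 and 4 of Hnf4i on day 4 exceeded 100 CPM in the deposited values. Leaving out these 4 libraries left 1 Hnf4i library on day 4, which the fit assumes to vary as the other groups do. Under that assumption the day 4 difference was 1.86 for LysE on the log2 scale, 1.82 for LysX and -0.56 for LysB, which was then not called. Over all 25 alternatives (edgeR or DESeq2) the adjusted p of LysB on day 4 ran from 0.000841 to 0.704. The highest value is that of LysB to LysE summed, not of LysB alone. The 6 visceral muscle markers summed to 2700 to 3175 CPM in control and 1611 to 2496 in Hnf4i libraries of day 4. The 7 hemocyte markers did not move one way: crq, nearly all of their sum, was lower in Hnf4i on day 4 (242 ± 14.9 against 409 ± 10.6 CPM), as was Pxn, while NimC1 was higher (2.44 ± 1.05 against 0.622 ± 0.198 CPM) and Hml was not called. The 4 progenitor markers summed to 5.57 to 14.1 CPM over all libraries and the 6 Malpighian tubule markers to 87.8 to 162. Of these, 3 progenitor and 4 tubule markers were tested, and none was called between genotypes on day 4, where 12.2% of all genes were. The untested tubule markers Uro and salt reached up to 40.0 and 7.37 CPM in a library of Hnf4i on day 4. In the other groups both stayed at or below 0.134 CPM. On day 3 Irk1, a tubule marker, was called lower, where 2.46% of all genes were. The part of any of these cell types in the lysozyme differences was not tested.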

How the data were processed

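The mRNA of 16 midgut libraries (4 groups of 4, grouped by the submitters' titles) was analysed. Whole-number counts per gene were deposited by the authors, with their CPM, which equalled counts divided by the library total and were used as a check. Per the submitters' processing notes, reads were handled with FastQC 0.11.7, MultiQC 1.12, Trimmomatic 0.39, STAR 2.7.10b and the BDGP6 build. The library kit was stranded. The study's software list names Salmon among its tools but does not tie it to these tables, and their counting tool, strand setting and treatment of reads that match several genes are not stated. Of the 24254 rows, 6381 are no genes (0.0365% to 0.0489% of counts) and were left out. Columns of the authors' own comparisons were not used. No 2 libraries were identical.

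Genes with at least 10 counts in enough libraries (filterByExpr, minimum total 15) were fitted with edgeR 4.0.16 (glmQLFit, R 4.3.3) with TMM scaling and 1 mean per group, and p-values were adjusted by Benjamini-Hochberg over 9801 genes. The step was tested on simulated data. Shares of lysozyme counts were compared by exact permutation tests (scipy 1.17.1). Alternatives were DESeq2 1.42.0, other scalings, no filter, only the groups compared, a replicate block, LysB to LysE summed, each library left out, and, chosen after seeing the data, the 4 libraries highest in fat body markers left out. The genes named were the 7 members, Hnf4, the other lysozyme genes, up to 4 called genes per list with the largest change, the 5 genes most alike each profile and the neighbours. The members and lists were chosen with earlier results of these data known. Positions are from the Ensembl annotation of BDGP6. No sequences are shown, since none was at hand for these genes.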

Additional observations from a re-analysis of the deposited data

Results flagged for a closer look

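Of 36 sets of 4 libraries checked (each member and sum in each group), 1 held a library far from the other 3. LysP stood at 0.1392 CPM in replicate 1 of Hnf4i on day 3, and the gap to the next library was 0.891 of the whole range, above the critical value of Dixon's test for 4 values. This is 7 counts against 1, 0 and 0. Chance alone sets apart about 1 in 20 such groups.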

How the results depend on the processing

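Of 125 alternatives to a count, 10 changed it, 8 of them the day 4 count between genotypes. For the values of single genes, 943 of 967 alternatives were scored as unchanged. Fold changes were scored on direction and call. Differences in share, none of which had passed, were scored only on moving by less than the larger SD of the 2 groups. With LysB to LysE summed into 1 feature, 0 lysozymes were called between genotypes on day 3 and 1 (LysX) on day 4. That day 4 count was 2 in place of 3 with DESeq2, with only the groups compared and without the 4 libraries highest in fat body markers. The summed value was -0.44 on day 3, which reversed LysE and ended the call of LysB, and -0.088 on day 4, which reversed LysC, LysD and LysE and ended the call of LysB. This follows from the summing itself. Leaving out 1 library at a time gave 6 called between ages in both genotypes, 2 between genotypes on day 3, 2 to 3 on day 4 and 0 to 1 for the difference in rise, where the 1 was LysC at 0.60 without replicate 2 of Hnf4i on day 4. On leaving out 1 library, directions turned in 3 of 30 fold changes, none of them called, and in 6 of 28 differences in share, none of which had passed (LysC, LysD, LysP and LysX between genotypes on day 3, and LysP and LysS with age in Hnf4i). LysX on day 3 ran from -0.72 to 0.61 between genotypes (-0.02 without replicate 2 of control, -0.72 without replicate 4 of Hnf4i). LysD on day 4 ran from -0.029 to 0.18 (-0.029 without replicate 4 of Hnf4i). The difference in rise of LysS ran from -0.35 to 0.15 (0.0008 and 0.0044 without replicate 3 of control on day 3 and on day 4, 0.15 without replicate 1 of Hnf4i on day 3, and 0.04, 0.09 and 0.12 without replicate 4 of control or replicate 1 or 2 of Hnf4i on day 4), and was 0.33 without the 4 libraries highest in fat body markers. The causes were not tested.

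Scaling to library totals alone moved the calls over all genes from 1668 higher and 2176 lower to 901 and 3361 with age in control midguts, from 1842 and 2339 to 1116 and 3347 in Hnf4i midguts, from 148 and 241 to 213 and 212 between genotypes on day 3, and from 535 and 658 to 763 and 517 on day 4. It changed no lysozyme call. Replicate numbers did not pair the libraries: deviations of same-numbered libraries from their group means correlated at -0.168 to 0.0861 over 16 pairs, and 3 of 16 correlated best with their own number. With the replicate block, 6, 6, 2 and 3 lysozymes were called in the 4 comparisons and 0 for the difference in rise, as without it. Leaving out a library from the tests of shares was not run as a test, since 3 against 4 libraries cannot reach an exact two-sided p below 0.05.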
